A study of Homo sapiens with 8 samples.

Results

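SYT4, TBX15, NRCAM and MYOZ1 are 4 genes best known from neurons, skeletal and limb mesenchyme, and striated muscle, and their transcripts were followed here in THP-1, an established line of human monocytic leukaemia cells with an MLL-AF9 fusion. The genes were taken as every probe whose platform gene symbol was one of these names, which gave 4 probes, 1 for each gene, of 53617 probes on the array and 4 of the 14884 named genes. They were selected on the measured changes of IPA-3 against DMSO 1 and 2 and of FRAX-597 against DMSO 3 and 4 and on their level beside the lower quartile of all probes, so these values are a description and carry no test. Cells received 6 µg/mL of IPA-3, 2 µg/mL of FRAX-597 or a matching volume of the solvent DMSO, and RNA was taken 5 h later. Both compounds inhibit the p21-activated kinases, IPA-3 as an allosteric inhibitor and FRAX-597 as an ATP-competitive one. There were 4 DMSO, 2 IPA-3 and 2 FRAX-597 arrays of this 1 line. Whether replicates were separate cultures is not in the labels, so p-values measure the spread between arrays, which may be technical. The deposited values are on a log2 scale, on which a difference of 1 is a doubling.

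The arrays lay in 2 sets that carry no label. The median over all probes was between 5.51 and 5.55 in DMSO 1, DMSO 2 and both IPA-3 arrays, and between 6.00 and 6.05 in DMSO 3, DMSO 4 and both FRAX-597 arrays. DMSO 3 and 4 against DMSO 1 and 2 gave 8918 genes at a limma adjusted p under 0.05, 59.9% of those tested, with a median shift of 0.48. Each compound was compared within its own set, IPA-3 with DMSO 1 and 2, and FRAX-597 with DMSO 3 and 4. This pairing was given by the rule that chose the genes, and no label assigns DMSO arrays to a compound. Of the 19 myeloid markers on the list, 9 were measured, and all 9 lay above the lower quartile of all probes in every array. SPI1 read 9.08 to 9.42 and CD68 11.67 to 12.09, while MPO read 5.82 to 6.46 and CD36 5.57 to 7.85. This bar is low, as 13237 of 14884 genes lay above the lower quartile of probe means. All 3 measured B cell markers and 4 of 5 T cell markers also passed it in every array. Passing it therefore does not mark a gene as myeloid. CD33, ITGAM and 8 further myeloid markers were not analysed here. A gene is called measured, here and below, if a probe carried its name in the annotation. Of 53617 probes 37519 carried no gene name, so a gene not counted as measured may still have a probe.

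SYT4 encodes synaptotagmin-4, a protein of secretory vesicles in neurons and endocrine cells whose first C2 domain lacks a residue used for calcium binding, and which is known as a gene rapidly induced by depolarisation and by forskolin in neuroendocrine cells. NRCAM encodes a cell adhesion molecule of the L1 family, which binds ankyrin inside the cell and takes part in nodes of Ranvier and in semaphorin receptors with neuropilin-2. TBX15 encodes a T-box transcription factor of limb and craniofacial mesenchyme and of muscle fibre and adipocyte subtypes, closely related to TBX18. MYOZ1 encodes myozenin-1, also called calsarcin-2, which sits in the Z-disc of fast-twitch muscle fibres and tethers calcineurin there. Many neuronal genes are held silent outside the nervous system by the repressor REST.

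The stretches just before the annotated starts are shown for 3 of the genes, because they are the sequences nearest to the transcripts whose levels moved. Each is the 250 bases before a start, from the RefSeq promoter table for GRCh38.p14, read 5′ to 3′ on the minus strand of the chromosome, with capitals marking the motif matches described after them. NRCAM has 3 annotated starts in the table, and the window of the one at the lowest coordinates is shown, picked because it held the matches.
SYT4, chr18:43277491-43277740: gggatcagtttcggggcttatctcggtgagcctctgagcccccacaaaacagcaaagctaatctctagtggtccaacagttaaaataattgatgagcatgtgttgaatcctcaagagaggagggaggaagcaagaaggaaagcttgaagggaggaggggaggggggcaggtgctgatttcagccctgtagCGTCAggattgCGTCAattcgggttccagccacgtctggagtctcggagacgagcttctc
NRCAM, chr7:108243386-108243635: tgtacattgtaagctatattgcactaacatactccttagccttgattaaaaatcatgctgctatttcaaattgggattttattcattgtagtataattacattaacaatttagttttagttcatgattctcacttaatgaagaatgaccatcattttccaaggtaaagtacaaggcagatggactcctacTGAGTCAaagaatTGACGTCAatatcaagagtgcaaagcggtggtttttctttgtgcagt
MYOZ1, chr10:73641475-73641724: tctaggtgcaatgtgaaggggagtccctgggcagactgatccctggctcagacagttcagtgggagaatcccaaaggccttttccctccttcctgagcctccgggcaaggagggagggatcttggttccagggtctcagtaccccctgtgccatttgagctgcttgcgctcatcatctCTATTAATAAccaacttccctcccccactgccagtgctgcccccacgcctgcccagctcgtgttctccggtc

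Motifs were searched on both strands of these windows and of the same windows of all 22199 promoters of protein-coding genes in the table. SYT4 held 2 matches to TGACG, the core of the cAMP response element, beginning 60 and 49 bases before the start, and 24.2% of all promoters held at least 1. The whole element, TGACGTCA, which contains that core on both strands, was present in 1 NRCAM window at 47 bases before its start and in 2.01% of promoters. The same window held TGANTCA, the AP-1 motif, 60 bases before the start, present in 5.36% of promoters. Because this window was picked from 3 for its matches, these shares do not measure how unusual the matches are. MYOZ1 held 1 match to the MEF2 motif 72 bases before the start, and 2.1% of promoters had one. The TATA box TATAAA (9.0% of promoters), the E-box CACGTG (7.37%) and the CEBP-ATF response element TGATGNAA (2.35%) had no match in any of the 5 windows of SYT4, NRCAM and MYOZ1. The GC box GGGCGG (53.7% of promoters) was found only in the NRCAM window at the highest coordinates, with 2 matches. By base composition the SYT4 window had 52.8% G and C and the MYOZ1 window 58.4%, against a median of 62.0% over all promoters, while the 3 NRCAM windows had 78.4%, 42.4% and 33.2%. A match is a run of letters and not a shown binding site, and which NRCAM start THP-1 cells use was not measured. TBX15 is named only.

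SYT4 was low in solvent and much higher with FRAX-597. In bulk RNA of this kind, more cells with a transcript and more transcript per cell cannot be told apart. Its log2 values were 4.80 in DMSO 3 and 4.86 in DMSO 4, against 7.45 in FRAX-597 1 and 7.39 in FRAX-597 2. The pairs were far apart, with 2.54 between their nearest arrays, and within each pair the arrays differed by 0.06. The means were 4.83 ± 0.04 and 7.42 ± 0.04 (SD, n = 2 each), a change of 2.59 or 6.04-fold, the rise ranked 5 among 14884 genes. In the first array set SYT4 read 4.71 in DMSO 1 and 4.35 in DMSO 2, and 4.89 and 4.90 in the IPA-3 arrays. The IPA-3 arrays lay above both DMSO arrays by at least 0.18, a gap smaller than the 0.36 between the DMSO arrays themselves, and the change of 0.37 was 0.55 without DMSO 1 and 0.19 without DMSO 2.

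TBX15 also stood highest with FRAX-597. It read 8.33 in DMSO 3, 7.63 in DMSO 4, 10.07 in FRAX-597 1 and 10.06 in FRAX-597 2. The FRAX-597 arrays were alike within 0.01 and 1.73 above the nearer DMSO array, whereas the DMSO arrays differed by 0.70, more than the 0.50 that 90% of all genes stayed within. The change from 7.98 ± 0.49 to 10.06 ± 0.006 (SD, n = 2 each) was 2.08, or 4.24-fold, which became 2.43 without DMSO 3 and 1.74 without DMSO 4. With IPA-3, TBX15 read 6.14 and 6.15, against 6.31 and 6.32 in DMSO 1 and 2, lower by 0.17 with no overlap.

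NRCAM stood out with IPA-3 and not with FRAX-597. It read 3.82 in DMSO 1 and 3.97 in DMSO 2, then 5.44 in IPA-3 1 and 5.16 in IPA-3 2. The nearest arrays of these pairs were 1.19 apart, and the IPA-3 arrays differed from each other by 0.28. The mean went from 3.90 ± 0.11 to 5.30 ± 0.20 (SD, n = 2 each), a change of 1.40 or 2.65-fold, the rise ranked 15 among 14884 genes. In the second set NRCAM read 4.50 and 4.49 in DMSO 3 and 4, and 4.37 and 4.52 in the FRAX-597 arrays, so these pairs overlapped and the change was -0.05.

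MYOZ1 was the gene of the 4 that read lower with FRAX-597. Its values were 8.73 in DMSO 3 and 8.79 in DMSO 4, against 7.82 in FRAX-597 1 and 7.85 in FRAX-597 2. Neither pair's arrays differed by more than 0.06, and the pairs were 0.88 apart. The mean went from 8.76 ± 0.04 to 7.84 ± 0.02 (SD, n = 2 each), a change of -0.92, the fall ranked 19 among 14884 genes. With IPA-3 it read 7.80 and 7.77 against 8.06 and 8.02 in DMSO 1 and 2, a change of -0.25 in the same direction with no overlap.

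**Figure D1:**
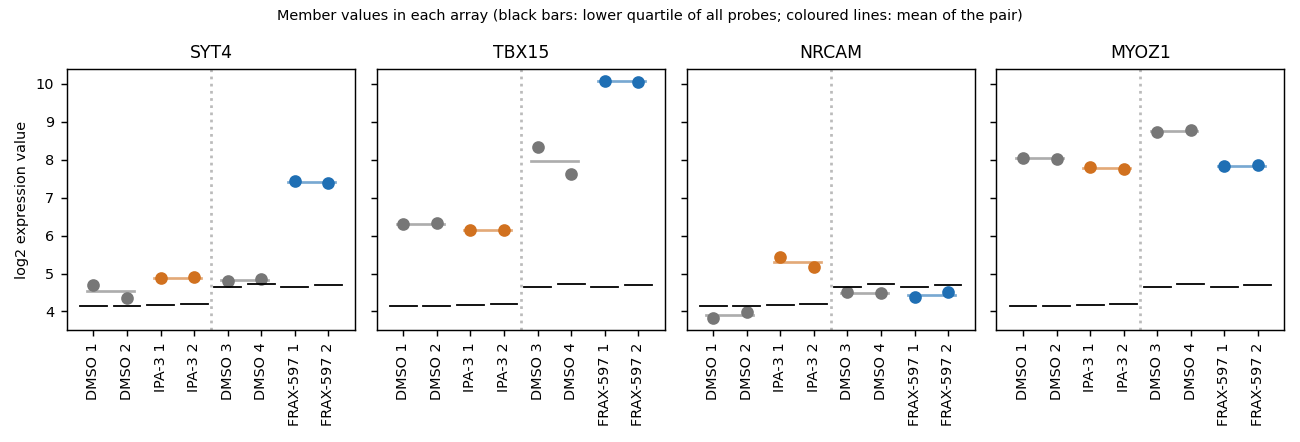
Log2 expression value (vertical axis) of SYT4, TBX15, NRCAM and MYOZ1 in each of the 8 arrays, grey for DMSO, orange for IPA-3 and blue for FRAX-597, with coloured lines at pair means, black bars at the lower quartile of all probes in that array and a dotted line between the array sets. SYT4 reached 7.39 and 7.45 and TBX15 10.06 and 10.07 in the FRAX-597 arrays, NRCAM crossed the lower quartile in the IPA-3 arrays alone, and MYOZ1 lay at 7.77 or above in every array.

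Because the choice was made on these contrasts, counts over the 4 genes say nothing further. The same holds for counts of settings in which they are called. Leaving out an array of the other set cannot move a change and alters only the estimate of its spread. FRAX-597 gave 23 genes at a limma adjusted p under 0.05, 0.155% of those tested, and IPA-3 gave 5 genes, 0.0336%, and SYT4, TBX15 and MYOZ1 are among the former and NRCAM among the latter. Over 17 other settings, SYT4 was called in 16 and TBX15 in 10, and NRCAM and MYOZ1 in 8 each. NRCAM was not called without any 1 of the DMSO or IPA-3 arrays, and TBX15, MYOZ1 and SYT4 were not called when the 4 arrays of the FRAX-597 contrast were fitted alone. With all 4 DMSO arrays as controls NRCAM, TBX15 and MYOZ1 were not called. NRCAM also lost its call with quantile normalization and with values under the array's lower quartile raised to it. TBX15 and MYOZ1 also lost their calls without any 1 array of the first set or without FRAX-597 1, and MYOZ1 without DMSO 3 or DMSO 4. The arrays of the compared pairs did not overlap for 3 of the 4 genes with FRAX-597, where 30.8% of all genes did not overlap, and for 4 of the 4 with IPA-3, where 47.6% did not. With 2 arrays against 2, lack of overlap was thus common among all genes, and the values of SYT4, TBX15 and MYOZ1 under IPA-3 are to be read with that share. The compounds were given at different concentrations, so their changes are set side by side and not compared.

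The level at which each probe read differed greatly, and this bears on what a fold change means. The lower quartile of all probes was 4.14 to 4.20 in the arrays of the first set and 4.64 to 4.73 in those of the second. NRCAM lay under it in all 4 DMSO arrays and in both FRAX-597 arrays, by 0.14 to 0.33, and above it by 1.28 and 0.96 in the IPA-3 arrays. SYT4 lay above it in the DMSO arrays by 0.12 to 0.56 and in the FRAX-597 arrays by 2.81 and 2.69. Neither gene was shown to be above background in solvent, nor was NRCAM with IPA-3, so the sizes of their rises are uncertain. TBX15 exceeded the quartile by at least 1.95 and MYOZ1 by at least 3.15 in every array.

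As a further reference, 87 probes of olfactory receptor and keratin-associated protein genes, best known from olfactory neurons and hair follicles, were read on the same arrays. Probes differ in how strongly they bind, so this is a range of readings and not a detection limit. NRCAM exceeded 27 to 37 of the 87 in the DMSO arrays, and 66 and 55 in the IPA-3 arrays. SYT4 exceeded 34 to 53 of them in the DMSO arrays and 80 in each FRAX-597 array. TBX15 exceeded 77 to 86 in the DMSO arrays and all 87 in both FRAX-597 arrays, and MYOZ1 exceeded 86 in each DMSO array. SYT4 and NRCAM thus read within the bulk of these probes in solvent, and MYOZ1 near their top. NRCAM was still within that bulk in the IPA-3 arrays, at -0.08 and -0.39 relative to the array median.

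Over 86 of these reference genes the changes ran from -0.47 to 0.86 with IPA-3 and from -0.50 to 0.47 with FRAX-597. SYT4, TBX15, NRCAM and MYOZ1 were chosen for their changes and the reference genes were not, so the ranges are shown beside them as a description and test nothing.

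**Figure D2:**
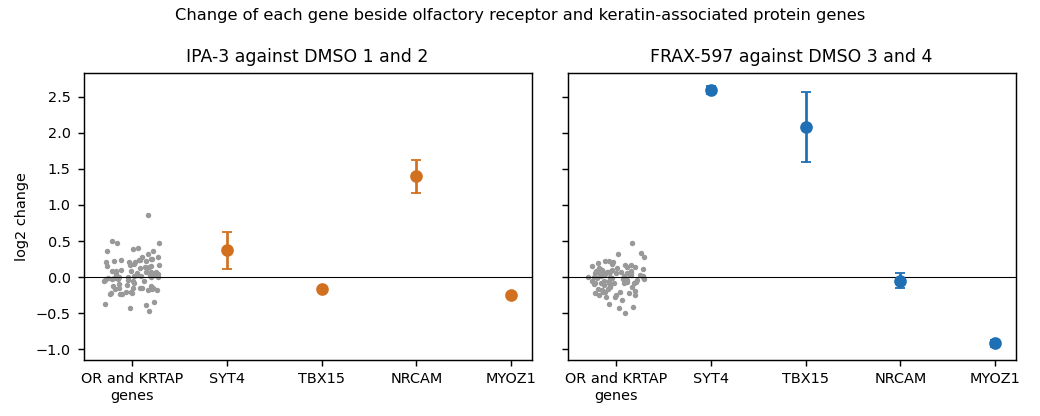
Log2 change (vertical axis) under IPA-3 on the left and FRAX-597 on the right, for 86 olfactory receptor and keratin-associated protein genes (grey points) and for SYT4, TBX15, NRCAM and MYOZ1 (coloured points). Bars are the root of the summed squares of the SDs of the 2 pairs (n = 2 each), and the grey points stay between -0.50 and 0.86.

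The genes also differed in how the array sets compared in solvent. Against a shift of 0.48 over all genes, the mean of DMSO 3 and 4 exceeded that of DMSO 1 and 2 by 1.66 for TBX15, 0.72 for MYOZ1, 0.60 for NRCAM and 0.30 for SYT4. Relative to all genes these differences were 1.18, 0.24, 0.12 and -0.18. TBX15 was therefore higher in the DMSO arrays of the second set without either compound. It lay there at 1.58 and 2.30 above the array median, against 0.80 and 0.81 in DMSO 1 and 2. What the sets are is not labelled, so handling, scan and culture cannot be told apart.

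Measured from each array's own median, the order of the groups could be given for each gene. Subtracting the median did not remove the difference between the sets, as 4514 genes were still called between the DMSO pairs. The order across sets is therefore not an order of treatments. MYOZ1 was lowest with FRAX-597, at 1.82 and 1.81, then with IPA-3, at 2.28 and 2.22, then at 2.54 and 2.51 in DMSO 1 and 2, and highest at 2.70 and 2.75 in DMSO 3 and 4, with no neighbours overlapping. TBX15 ran from IPA-3, at 0.61 and 0.60, through DMSO 1 and 2 and then DMSO 3 and 4 to FRAX-597, at 4.06 and 4.02. For SYT4 the FRAX-597 arrays stood at 1.45 and 1.35 and the IPA-3 arrays at -0.64 and -0.65, while the solvent pairs, at -0.81 and -1.16 and at -1.23 and -1.19, were separated by 0.03, less than the 0.36 between DMSO 1 and 2. For NRCAM the IPA-3 arrays stood at -0.08 and -0.39 and the other 6 arrays between -1.69 and -1.52, where the groups overlapped.

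The genes around these 4 in their gene families and complexes were then examined, 124 measured of 175 listed on 7 lists. None of the 124 was called under IPA-3 or under FRAX-597 by limma, where 0.0336% and 0.155% of all genes were called. At an unadjusted p under 0.05 there were 10 under IPA-3, which is 8.06% against 7.21% of all genes, and 8 under FRAX-597, which is 6.45% against 7.66%. The median change over the lists together was -0.019 with IPA-3 and -0.012 with FRAX-597, beside -0.02 over all genes in each.

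The 25 measured synaptotagmins and relatives had a median change of 0.02 under IPA-3 and -0.07 under FRAX-597. SYTL3, a synaptotagmin-like effector of RAB27, came nearest to the threshold. It read 6.68 and 6.48 in DMSO 3 and 4 and 7.31 and 7.49 in the FRAX-597 arrays, a difference of 0.82 (SE 0.13, limma adjusted p = 0.0876), beside 0.32 under IPA-3 (SE 0.13, limma adjusted p = 0.663). SYT9, a calcium sensor of secretory vesicles, differed by -0.34 under FRAX-597 (SE 0.12; limma adjusted p = 0.555), and ESYT1, which tethers the endoplasmic reticulum to the plasma membrane, by -0.35 under IPA-3 (SE 0.15; limma adjusted p = 0.685). SYT11, named for its kinship with SYT4 and outside the rule for named genes, read 7.79 in DMSO 3 and 8.16 in FRAX-597 1 but 6.93 in DMSO 4 and 6.84 in FRAX-597 2. Its readings differed within each pair of the second set and its change was 0.14.

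The 28 measured genes of vesicle fusion had medians of -0.03 under IPA-3 and 0.04 under FRAX-597. STX11, a syntaxin of haematopoietic granule release, read 8.45 in DMSO 3, 7.53 in DMSO 4, 10.18 in FRAX-597 1 and 8.56 in FRAX-597 2. The change of 1.38 (SE 0.49; limma adjusted p = 0.553) was not called with a difference that wide inside each pair, and it was called, at 2.19 (limma adjusted p = 0.029), without FRAX-597 2. STXBP5, also called tomosyn, which restrains fusion by binding syntaxin, was less scattered. Its differences were 0.48 under IPA-3 (SE 0.11; limma adjusted p = 0.454) and 0.52 under FRAX-597 (SE 0.11; limma adjusted p = 0.219).

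The 14 measured T-box genes other than TBX15 did not follow it. Their median change was -0.12 under FRAX-597 and -0.03 under IPA-3. EOMES, a T-box factor of cytotoxic lymphocytes, had the largest change under FRAX-597, -0.47 (SE 0.17; limma adjusted p = 0.581), and TBX19, of pituitary cells, the next, 0.39 (SE 0.21; limma adjusted p = 0.773). Under IPA-3 the largest were TBX2 at 0.41 (SE 0.22; limma adjusted p = 0.751) and TBX22 at 0.39 (SE 0.11; limma adjusted p = 0.526). TBX18, named for its kinship with TBX15 and outside the rule, had a change of 0.12 under FRAX-597 (limma adjusted p = 0.998), reading 11.23 and 10.42 in DMSO 3 and 4 and 11.47 and 10.42 in the FRAX-597 arrays.

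Among 24 measured genes of the L1 family and of neural adhesion the median change was 0.00 with each compound. NRP2, neuropilin-2, which pairs with NRCAM in semaphorin signalling, had the largest change with each compound and neither was called. It read 5.35 and 5.25 in DMSO 1 and 2 and 6.07 and 6.06 in the IPA-3 arrays, a change of 0.76 (SE 1.01; limma adjusted p = 0.931), which passed when the 4 arrays of that contrast were fitted alone (SE 0.089; limma adjusted p = 0.0397). In the second set NRP2 read 7.13 in DMSO 3 and 9.12 in FRAX-597 1, but 5.46 in DMSO 4 and 5.62 in FRAX-597 2, so the arrays of a pair were more unlike than the pairs. NCAM2, a neural adhesion molecule, differed by -0.33 under IPA-3 (SE 0.32; limma adjusted p = 0.879) and NRP1, neuropilin-1, by 0.39 under FRAX-597 (SE 0.17; limma adjusted p = 0.643). Of the L1 family itself, L1CAM had a change of 0.20 under IPA-3 (SE 0.16; limma adjusted p = 0.849), and CHL1, named for kinship and outside the rule, read 4.40 and 4.35 in DMSO 1 and 2 and 4.59 and 4.55 with IPA-3.

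The 17 measured genes of the Z-disc and of calcineurin signalling had medians of -0.02 under IPA-3 and -0.01 under FRAX-597. MYOZ2, the cardiac and slow-fibre relative of MYOZ1, read under the lower quartile in all 8 arrays, and its change under FRAX-597 was -0.32 (SE 0.17; limma adjusted p = 0.779), beside -0.32 for PDLIM3, a binding partner of alpha-actinin (SE 0.16; limma adjusted p = 0.744). RCAN2, a regulator of calcineurin, had a change of 0.48 under IPA-3 (SE 0.19; limma adjusted p = 0.663). SYNPO2, a Z-disc actin-binding protein, read 7.94 in DMSO 4 and 7.96 in FRAX-597 2 and between 5.40 and 5.83 in the other 6 arrays, with a difference of -0.30 under IPA-3 (SE 0.84; limma adjusted p = 0.983). MYOZ1 showed no such split, with 0.06 between DMSO 3 and 4 and 0.03 between the FRAX-597 arrays.

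REST and its measured cofactors, 10 genes, had medians of -0.07 under IPA-3 and -0.01 under FRAX-597. REST itself, at 8.33 to 9.14 in the 8 arrays, had a difference of 0.29 under FRAX-597 (SE 0.13; limma adjusted p = 0.671). SIN3B, a scaffold of REST repression, differed by 0.28 (SE 0.11; limma adjusted p = 0.607). Under IPA-3 the largest differences were those of RCOR2, a CoREST family corepressor, at -0.42 (SE 0.11; limma adjusted p = 0.524) and of EHMT2, a histone H3 lysine methyltransferase, at -0.34 (SE 0.17; limma adjusted p = 0.742). Only 7 of 15 listed genes that REST represses were measured, with a median of -0.08 under IPA-3 and 0.01 under FRAX-597. SYN1, synapsin-1, had the largest change of them, 0.39 under IPA-3 (SE 0.13; limma adjusted p = 0.615), followed by L1CAM. Under FRAX-597 the largest were BDNF, a neurotrophin, at 0.18 (SE 0.12; limma adjusted p = 0.853) and SYP, synaptophysin, at -0.16 (SE 0.14; limma adjusted p = 0.905).

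**Figure D3:**
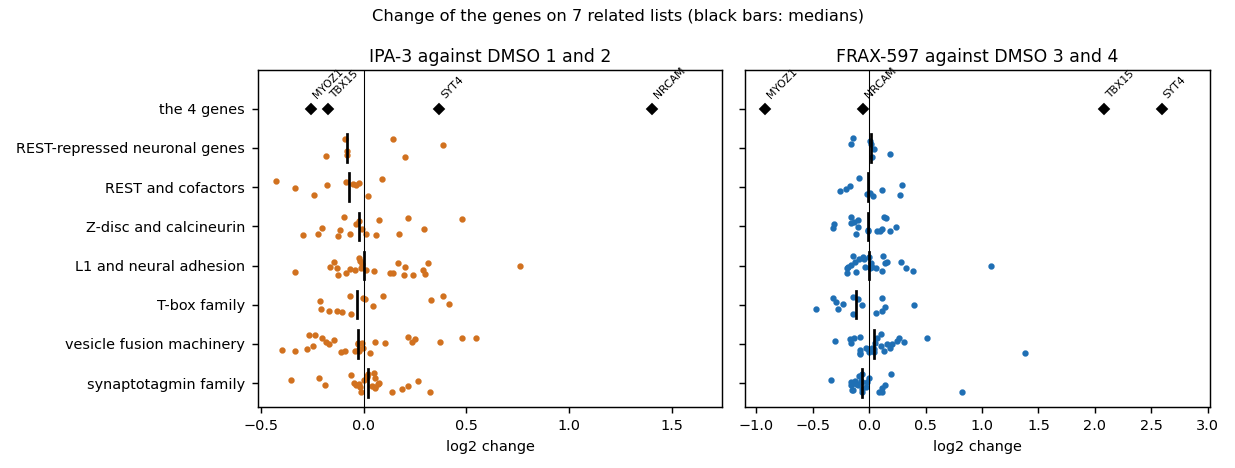
Log2 change (horizontal axis) of each measured gene on 7 lists of relatives and partners, under IPA-3 on the left and FRAX-597 on the right, with SYT4, TBX15, NRCAM and MYOZ1 as black diamonds in the top row. Black bars mark list medians, which lie between -0.12 and 0.04, and the isolated points at 1.38 and 1.08 on the right are STX11 and NRP2.

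Markers of the tissues in which the 4 genes are best known were read beside them. The 6 measured of 20 neuron markers were summed on the linear scale. They reached 261 to 278 in DMSO 1 and 2 and 281 to 313 in the IPA-3 arrays, with a median log2 change of 0.23. An unadjusted limma p under 0.05 was found for 2 of 6, both higher (MAP2 at 0.48 and SYN1 at 0.39), where 7.21% of all genes had one. The signal of MAP2 was low, at 4.72 and 4.61 in DMSO 1 and 2, where the lower quartile was 4.15 and 4.14. Of the 6, 4 had a change above 0 and 2 below, SYP (-0.09) and GAP43 (-0.02), and none was called, with a limma adjusted p of 0.69 for MAP2. The part of these markers in the NRCAM result was not tested. In the second set they summed to 345 to 365 in DMSO and 339 in each FRAX-597 array, so they did not move with SYT4 there. The 7 measured of 10 neuroendocrine markers had medians of 0.09 and 0.01 under IPA-3 and FRAX-597.

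Muscle and mesenchymal markers were read in the same way, and none was called. The 10 measured of 23 skeletal muscle markers summed to 792 to 848 in DMSO 3 and 4 and to 848 to 865 with FRAX-597, with a median change of -0.05 and 1 of 10, TTN, at an unadjusted p under 0.05 and higher (0.34), while MYOZ1 was lower. MYF6, a muscle regulatory factor, lay under the lower quartile in all 8 arrays. The 7 measured of 15 mesenchymal markers summed to 760 to 889 in DMSO 3 and 4 and to 722 to 892 with FRAX-597, with a median change of -0.02, while TBX15 was higher, and DCN lay under the lower quartile in all arrays. Over all 10 marker lists 0 of 58 measured genes were called by limma with either compound, and an unadjusted p below 0.05 was found for 5 (8.62%) under IPA-3 and 3 (5.17%) under FRAX-597, against 7.21% and 7.66% of all genes. Of all genes 0.0336% and 0.155% were called.

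The chromosomal neighbours of the 4 genes were read from the RefSeq gene order of GRCh38.p14, taking up to 2 measured protein-coding genes on each side. By limma 0 of these 16 genes were called with either compound. An unadjusted limma p below 0.05 was found for 0 of them under IPA-3 and for 4 under FRAX-597, where 7.21% and 7.66% of all genes had one. The 4 were WDR3 and MSS51 and, near NRCAM, DLD and PNPLA8. Of the direct neighbours of SYT4 on chromosome 18, RIT2 differed by -0.23 under FRAX-597 with a limma adjusted p of 0.845 (SE 0.15), and SETBP1 by -0.13 with one of 0.951 (SE 0.15). SPAG17, directly beside TBX15 on chromosome 1, had one of 0.18 (SE 0.11; limma adjusted p = 0.832), and ZNF697, farther out, one of 0.72 (SE 0.40; limma adjusted p = 0.782). USP54 and SYNPO2L, the direct neighbours of MYOZ1 on chromosome 10, had changes of 0.00 and -0.16. PNPLA8, directly beside NRCAM on chromosome 7, had a change of 0.13 under IPA-3 (SE 0.15; limma adjusted p = 0.913) and of 0.51 under FRAX-597 (SE 0.15; limma adjusted p = 0.388). Of the neighbours WDR3, a ribosome assembly factor near TBX15, had the smallest adjusted p under FRAX-597, with a change of -0.62 (SE 0.16; limma adjusted p = 0.341).

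The genes whose profiles were most like each of the 4 were found by Pearson r over the 8 arrays, each value taken as the difference from the DMSO mean of its own set. These r values describe 8 arrays in 4 groups and carry no test. High values were common: 51 protein-coding genes had an r of at least 0.95 with SYT4, 42 with TBX15, 23 with NRCAM and 34 with MYOZ1. SYT4 was most like JOSD1, a deubiquitinase (r = 0.987, FRAX-597 change 1.35), THBS1, thrombospondin-1 (r = 0.985, change 4.89), and PTBP2, a splicing regulator of neurons (r = 0.984, change 0.23). TBX15 was most like TTC39B (r = 0.987, change 1.06), UFSP2, a protease of the UFM1 pathway (r = 0.985, change 0.20), and THEMIS2, a signalling adaptor of myeloid cells (r = 0.985, change 1.34). The sizes varied widely among genes of like profile, from 0.20 to 4.89.

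NRCAM was most like GCKR, the glucokinase regulator (r = 0.992, IPA-3 change 0.27), RPS6KL1 (r = 0.980, change 0.26) and PGD, an enzyme of the pentose phosphate pathway (r = 0.977, change 0.68). MYOZ1 was most like NIP7, a ribosome assembly factor (r = 0.992, FRAX-597 change -0.61), MPV17L2, a mitochondrial ribosome factor (r = 0.992, change -0.37), and INTS5, an Integrator subunit (r = 0.991, change -0.46). None of these 12 genes was on the lists of neural or muscle genes. The related lists held 124 and the marker lists 58 measured genes of 14884, so few of any 12 genes would be on them. Among the 4 themselves SYT4 and TBX15 had r = 0.95 and SYT4 and MYOZ1 r = -0.98, which the choice of genes that move with FRAX-597 largely sets, and NRCAM had r between -0.42 and 0.10 with the others.

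**Figure D4:**
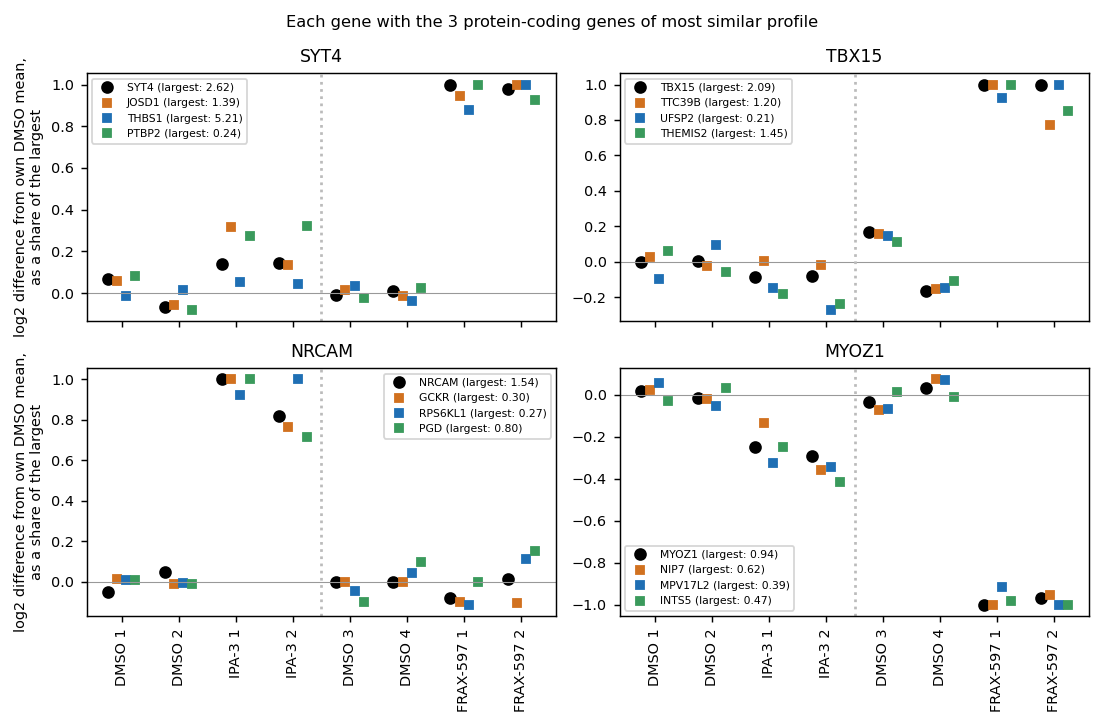
Log2 difference from the DMSO mean of the own array set, divided by the largest absolute difference of that gene (vertical axis, share of the largest), in the 8 arrays for each of SYT4, TBX15, NRCAM and MYOZ1 (black circles) and the 3 genes of most similar profile (coloured squares), with the largest difference in brackets. THBS1 follows SYT4 with a largest difference of 5.21 and PTBP2 with one of 0.24, so similar profiles cover very different sizes.

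The choice of solvent arrays changed some of these sizes. With all 4 DMSO arrays as controls the FRAX-597 change of TBX15 was 2.92 and that of MYOZ1 -0.56, in place of 2.08 and -0.92, and the NRCAM change under FRAX-597 was 0.25 in place of -0.05. SYT4 under FRAX-597 (2.74) and NRCAM under IPA-3 (1.10) kept their directions with those controls, as did TBX15 and MYOZ1.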

How the data were processed

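The deposited table holds log2 expression values from 1-colour Affymetrix whole-transcript arrays, made by the authors with Affymetrix Expression Console and Transcriptome Analysis Console, per the submitters' processing notes. Summarisation, normalization and genome build: not given in the sources used here. Per the platform annotation, 16098 of 53617 probes had 1 gene and 37519 none. For 779 genes with several probes the probe with the highest mean was kept, giving 14884 genes. Arrays have no read depth, so their number limits the precision.

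limma (version 3.58.1, R 4.3.3; lmFit, eBayes) was fitted to 4 groups over all 8 arrays, with Benjamini-Hochberg adjustment over all genes and a threshold of 0.05. It was tested on simulated data. Gene lists were described by counts and medians. Members and lists were chosen with earlier results of these data known. Named were the 4 genes; list members past the threshold, or else the 2 with the largest change in each contrast; neighbours; and the 3 most similar profiles per gene. Further motifs and the genes given by kinship were chosen after the sequences or values were seen. Normalization, controls, probe rule, dim-probe filter, floor, variance prior and single arrays were varied.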

Additional observations from a re-analysis of the deposited data

Results flagged for a closer look

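Among the 4 DMSO arrays, 112 sets of values from 56 named genes were checked for an array standing far from the other 3. In all, 7 were found. With 4 like arrays chance alone would flag about 1 of 20. That rate does not apply here, because these arrays lay in 2 array sets. Each gene was also checked both as deposited and relative to the array median. SYT4 read -0.81 in DMSO 1 relative to the array median, above the -1.23 to -1.16 of the other 3. NRCAM read -1.69 in DMSO 1 on that scale, below the -1.55 to -1.53 of the others. NRP2 read 7.13 in DMSO 3, against 5.25 to 5.46. SYNPO2 read 7.94 in DMSO 4, against 5.54 to 5.83. Relative to the array median, STX11 read 1.48 in DMSO 4, against 2.42 to 2.49. ESYT1 read 4.50 in DMSO 3 on that scale, against 4.16 to 4.18, and THAP5, a neighbour of NRCAM, read 1.59 in DMSO 3, against 1.30 to 1.33. The SYT4 and NRCAM values lay in DMSO 1, a control of IPA-3, and without that array the NRCAM change under IPA-3 was 1.33 and the SYT4 change 0.55.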

How the results depend on the processing

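No paired analysis was possible because the labels number only DMSO arrays and give the compound arrays no replicate numbers. The numbers used here for the compound arrays follow the sample order. Some genes split the second set alike, though MYOZ1 did not. NCAM1 read 6.70 in DMSO 3 and 7.12 in FRAX-597 1, against 8.74 in DMSO 4 and 8.89 in FRAX-597 2. LYZ read 10.79 and 10.69 against 9.71 and 9.80. A pairing inferred from the values was not used. The fit shares 1 spread per gene, so such a split also widens the SE under IPA-3. The changes of SYT4, TBX15 and MYOZ1 under FRAX-597 and of NRCAM under IPA-3 kept their direction under every setting that gave a value. Some settings could not move these changes, among them leaving out an array of the other set, so this is a description. Without single arrays the changes ran from 2.56 to 2.63, 1.74 to 2.43, -0.96 to -0.89 and 1.26 to 1.54. Some settings moved them by more than the replicate SD. With quantile normalization SYT4 was 2.64 and MYOZ1 -0.96. With all 4 DMSO arrays the changes were 2.74, 2.92, -0.56 and 1.10. Against the DMSO pair of the other set, after the array median was subtracted, they were 2.38 for SYT4, 3.23 for TBX15 and -0.71 for MYOZ1. With values under the lower quartile raised to it NRCAM was 1.16. The filter on dim probes kept all 4 genes and left these values as they were.

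The counts of called genes were less stable. For IPA-3, 5 genes became 2 with quantile normalization, 0 with all DMSO arrays (843 at an unadjusted p under 0.05), 4508 against the other pair, 96 with the 4 arrays alone, 2 with the floor, and 8 with an intensity trend, and 0 to 24 without single arrays (0 without DMSO 1, DMSO 2 or either IPA-3 array, 2 without DMSO 3 or DMSO 4, 24 without either FRAX-597 array). For FRAX-597, 23 became 5 with all DMSO arrays, 4975 against the other pair and 0 alone (606 at an unadjusted p under 0.05), and 2 to 227 without single arrays, the highest without FRAX-597 2, with 5 without DMSO 3, 7 without DMSO 4 and 2 without any 1 array of the first set. Related list genes called, 0 in each, became 40 and 43 against the other pair and 1 under IPA-3 alone, and 0 to 1 under FRAX-597 without single arrays. Marker genes, 0 in each, became 17 and 17 against the other pair. The difference between DMSO pairs, 8918 genes, became 4211 with quantile normalization (2241 higher, 1970 lower) and 4514 with the array median subtracted (1725 higher, 2789 lower), against 8177 higher and 741 lower as deposited. The cause was not tested. Changes outside these 8 arrays cannot be judged, and low signals limit NRCAM and SYT4.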
